A study of Mus musculus with 14 samples.

Results

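The crossover formation genes examined here were Msh4, Msh5, Mlh3, Rnf212, Ccnb1ip1, Hfm1 and Cntd1. They were taken by name from the gene column of the deposited count tables of sorted mouse germ cells. All 7 were present in both tables, which list 32667 genes for spermatogonia (Spg) and 36888 for spermatocytes (Spc). Libraries were made from polyadenylated RNA of animals homozygous for a Dnmt3C knockout allele (Dnmt3CKO/KO, here KO) and of wild-type littermates (WT), on a C57Bl6/J background. DNMT3C is a rodent DNA methyltransferase that methylates promoters of young retrotransposons in the male germline. Spg were sorted at postnatal day 14 from 3 KO and 3 WT replicates, and Spc from mice older than 20 days, with 4 replicates per genotype. KO spermatocytes arrest in pachytene, so the WT sort holds later stages that the KO sort lacks. Stage cannot be told apart from the age of the animals and the way the cells were sorted.

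In meiosis, programmed DNA breaks are repaired against the homologous chromosome, and a small share of these repair events mature into crossovers, which tie the homologues together until the first division. The MSH4-MSH5 complex clamps onto recombination intermediates, and the helicase HFM1 acts on the same early intermediates. RNF212, a RING protein linked to SUMO, stabilises the early sites, and CCNB1IP1 (HEI10), a ubiquitin ligase, removes proteins from sites that will not become crossovers. The cyclin-like protein CNTD1 is needed for the mature, late sites to form in mid-pachytene, and MLH3 is part of the endonuclease that resolves most crossovers. The 7 genes therefore range from early (Msh4, Msh5, Hfm1, Rnf212) to late (Cntd1, Mlh3) roles.

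Library totals lay between 40.6 and 53.3 in units of 1000000 counts. Levels are given as counts per 1000000 counts (CPM). Dnmt3c itself had 1.2 to 2.3 CPM in KO and 1.1 to 1.9 CPM in WT spermatogonia, and at 0.9 to 1.0 and 0.3 to 0.8 CPM in spermatocytes, so its RNA level did not serve to check the genotype labels. The 8 markers of spermatogonia summed to 1613 to 2095 CPM in KO and 1383 to 1888 CPM in WT spermatogonia, and the 8 markers of pachytene and later spermatocytes to 7303 to 14044 CPM in WT spermatocytes. In KO spermatocytes the latter list summed to 172 to 413 CPM, with 7 of its 8 genes and all 8 spermatid markers called lower, while 6 of the 8 spermatogonial markers were called higher. The 5 Leydig markers and the 4 macrophage markers were also all called higher in KO spermatocytes (46.6 to 276 against 12.4 to 24.6 CPM, and 15.01 to 89.1 against 2.2 to 4.3 CPM), as were 2 of 3 peritubular and 1 of 5 Sertoli markers. WT spermatogonia replicate 2 had 1913 CPM of the pachytene list, against 558 and 264 CPM in the other WT libraries and 139 to 173 CPM in KO. Spermatocyte replicates 1 and 4 were much alike in both genotypes but differed by more than sampling noise, and were kept as separate libraries.

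The 7 genes lie on 6 chromosomes (GRCm38): Msh4 at chr3:153857149-153906138, Hfm1 at chr5:106840192-106926321, Rnf212 at chr5:108729290-108774982, Cntd1 at chr11:101279012-101296317, Mlh3 at chr12:85234520-85270599, Ccnb1ip1 at chr14:50789248-50807732 and Msh5 at chr17:35028605-35046745. Cntd1 is on the plus strand and the others on the minus strand. Cntd1 overlaps Coa3 and Becn1, and Rnf212 overlaps the antisense gene 1700047L14Rik, each on the opposite strand, from which the stranded counting separated them. Ccnb1ip1 holds Rpph1, Hfm1 holds Gm27527 and Mlh3 holds Mir6938 on the same strand, and reads of these small genes could fall to either. Promoters are shown because NRF1, a transcriptional activator whose binding is blocked by DNA methylation, is active in germ cells. The letters GCATGCGC of an NRF1 site, sought on both strands within 250 bases before and 50 after the RefSeq start (GRCm38.p6), stood in 4 of the 7 promoters (Mlh3, Rnf212, Ccnb1ip1 and Hfm1), against 5.15% of 12578 promoters of genes tested in both stages. The 4 matches are printed on the gene's strand with 10 bases to either side, and capitals mark the match. In Hfm1 both orientations overlap in 1 palindrome.
Mlh3, chr12:85270592-85270619: tgtctcggaaGCGCATGCtcgggagcgc
Rnf212, chr5:108775075-108775102: ggccttgtacGCATGCGCtggaatgaac
Ccnb1ip1, chr14:50795695-50795722: tgcgcaccacGCATGCGCcctggcggct
Hfm1, chr5:106925889-106925918: cggggaaggcGCGCATGCGCgtcgcctcag

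The match began 10 bases before the start in Mlh3, 65 before it in Rnf212, 18 before it in Hfm1, and at base 17 after it in Ccnb1ip1. None was in the windows of Msh4, Msh5 or Cntd1. The CREB1 half-site TGACG was found in Msh5 and Hfm1 (30.1% of the same promoters), TGGGAA, a site of RBPJ, in Msh4 (23.0%), and the full site TGACGTCA in none (3.08%). These are matches of letters, and no binding was measured. The 250 bases before the start of Mlh3, the member with the clearest difference between stages below, are given in full (chr12:85270600-85270849, minus strand), with the same match in capitals.
Mlh3: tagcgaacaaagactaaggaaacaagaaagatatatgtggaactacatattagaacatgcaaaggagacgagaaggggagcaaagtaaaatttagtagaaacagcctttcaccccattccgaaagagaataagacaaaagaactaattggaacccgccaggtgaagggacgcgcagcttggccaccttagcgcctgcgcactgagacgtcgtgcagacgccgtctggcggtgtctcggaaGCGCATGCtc

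**Figure D1:**
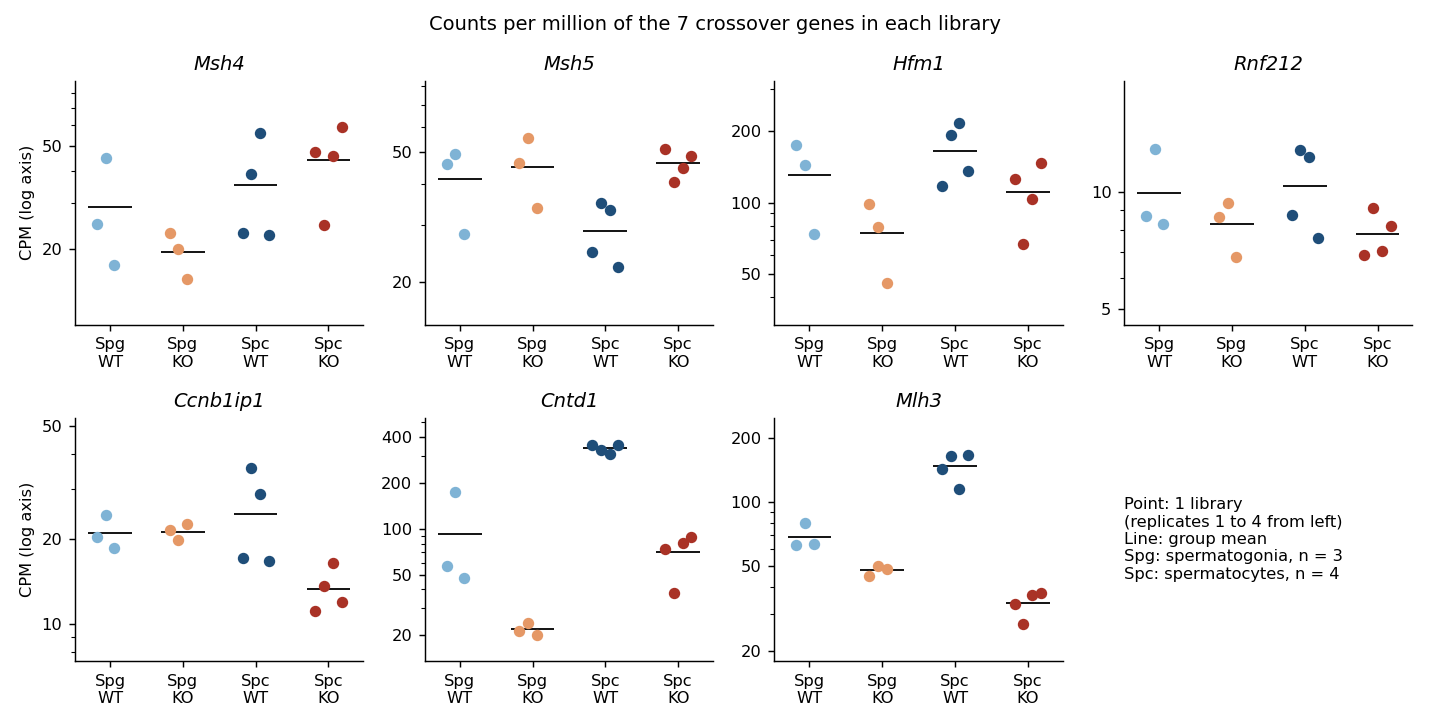
CPM of each of the 7 genes in each library on a log axis, scaled within each stage. Points are libraries and lines are group means (n = 3 Spg, n = 4 Spc). Cntd1 and Mlh3 lie apart between WT and KO in both stages, and the groups of Msh4, Hfm1 and Rnf212 overlap in both.

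The first comparison concerned how abundant the members were relative to each other. Levels are CPM per kilobase of exon, scaled over all 14 libraries, so that genes can be compared (mean ± SD, n = 3 for Spg and 4 for Spc). In WT spermatogonia the order was Cntd1 (17.02 ± 12.4), Hfm1 (16.03 ± 6.09), Ccnb1ip1 (9.17 ± 1.03), Mlh3 (7.49 ± 0.899), Msh5 (6.12 ± 1.56), Rnf212 (4.96 ± 1.15) and Msh4 (3.44 ± 1.58), and every gene's range overlapped that of the next. The place of Cntd1 rested on replicate 2, without which its mean was 9.84, below that of Hfm1 (15.4). In WT spermatocytes Cntd1 stood alone at the top at 88.0 ± 3.26, above the range of Hfm1 (28.7 ± 8.93). Mlh3 followed at 22.5 ± 3.56 and Ccnb1ip1 at 15.2 ± 6.28, above Rnf212 (7.33 ± 2.09), Msh5 (6.04 ± 1.53) and Msh4 (5.96 ± 2.86), which did not differ beyond their spread.

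In the KO the order was another one. In KO spermatocytes Hfm1 (18.8 ± 5.72) and Cntd1 (18.05 ± 5.62) led, and Mlh3, just below Hfm1 in WT, was last at 5.06 ± 0.681. In between came Msh5 (9.53 ± 0.975), Ccnb1ip1 (8.04 ± 1.40), Msh4 (7.29 ± 2.31) and Rnf212 (5.39 ± 0.718). No neighbours in that order were separated beyond their ranges. In KO spermatogonia Ccnb1ip1 (9.52 ± 0.570) and Hfm1 (9.44 ± 3.44) led, and Cntd1 was second to last at 4.18 ± 0.422, above the range of Msh4 (2.38 ± 0.493). Fewer cells of a type and less RNA per cell cannot be told apart in such bulk libraries.

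WT spermatocytes were then set against WT spermatogonia to give the normal course of the genes. The 2 late genes rose: Cntd1 by a factor of 5.17 and Mlh3 by a factor of 2.999. The other 5 were not called. Cntd1 lay at 10.5, 31.4 and 9.18 CPM per kilobase in WT spermatogonia (replicates 1 to 3) and at 90.1, 88.7, 83.2 and 90.0 in WT spermatocytes (replicates 1 to 4). The spermatocyte libraries were close to each other and all above the highest spermatogonia library, and the fitted log2 change was 2.37 (SE 0.40, adjusted p of edgeR's quasi-likelihood test 0.000173), or 3.04 without WT spermatogonia replicate 2 (adjusted p 1.04e-05). Mlh3 lay at 6.81, 8.51 and 7.15 and at 21.2, 26.1, 18.1 and 24.4 CPM per kilobase, again without overlap, as for 66.0% of all genes (log2 1.58, SE 0.19, adjusted p 1.76e-05). Thus 2 of 7 members were called, both higher, where 52.5% of the 24340 genes tested were called and 29.2% were called higher. The log2 fold changes of the others were 0.84 for Hfm1, 0.79 for Msh4, 0.73 for Ccnb1ip1, 0.56 for Rnf212 and -0.02 for Msh5, with adjusted p-values from 0.0456 (Ccnb1ip1) to 0.959 (Msh5). Scaled by library totals, the median gene went from 0.02 to -0.76, and Cntd1 and Mlh3 were still called, at 1.53 and 0.75, and Rnf212 and Ccnb1ip1 turned to -0.22 and -0.044. Hfm1, Msh4 and Msh5 were at 0.066, 0.048 and -0.81 there, not called.

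KO and WT spermatogonia were compared to find out whether the members differed before the arrest. None of the 7 was called by edgeR, with 2 at an unadjusted p under 0.05, where 0.0436% of the 20659 genes tested were called (9 genes, with 1509 at an unadjusted p under 0.05). The 2 late genes were the ones whose KO and WT libraries did not overlap, a pattern that 12.1% of all genes had. Cntd1 had 21.2, 24.3 and 20.2 CPM in KO and 56.8, 173 and 47.6 CPM in WT replicates 1 to 3. All 3 KO libraries were low and close to each other, and WT replicate 2, the library with the most pachytene marker RNA, was far above the other WT libraries. The log2 fold change was -2.08 (SE 0.47, adjusted p 0.142), and without WT replicate 2 it was -1.24 (adjusted p 0.0434). DESeq2's Wald test, which called 2.49% of all genes, called Cntd1 alone of the 7 (adjusted p 0.000361), the lowest of the alternatives, whose highest adjusted p was 0.651. Whether cells further in meiosis in the WT sort have a part in this difference was not tested.

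Mlh3 had 45.1, 50.1 and 48.8 CPM in KO and 62.9, 80.2 and 63.4 CPM in WT spermatogonia, without overlap (log2 -0.52, SE 0.15, adjusted p 0.290). Hfm1 had 99.0, 79.0 and 46.1 CPM in KO and 175, 144 and 73.8 CPM in WT, so that the groups overlapped. Its log2 fold change was -0.81 (SE 0.36, adjusted p 0.701), and with the replicate number as a block the SE was 0.11 and the adjusted p 0.0165, still not called. The block, which the main test did not use, raised the number of genes called over the whole table to 108 and left all 7 members uncalled. With it Cntd1 was at -1.82 (SE 0.30, adjusted p 0.0377) and Mlh3 at -0.51 (SE 0.12, adjusted p 0.127). The log2 fold changes of the other members were -0.58 for Msh4, -0.27 for Rnf212, 0.13 for Msh5 and 0.02 for Ccnb1ip1, each with overlapping groups and an adjusted p of at least 0.941. Without WT replicate 2 these values were -0.11, -0.024, 0.30 and 0.14. Within the 3 same-numbered pairs, KO was lower in all 3 for Mlh3, Cntd1, Hfm1, Msh4 and Rnf212, higher in all 3 for Msh5 and lower in 1 for Ccnb1ip1. The share of all genes with the same sign in all 3 pairs was not computed, so these counts do not set the members apart. The median of the 7 was -0.52 and that of all genes 0.02, while the 8 early meiotic markers had a median of -0.42 with none called and summed to 956 to 1504 CPM in KO and 1495 to 1995 CPM in WT.

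**Figure D2:**
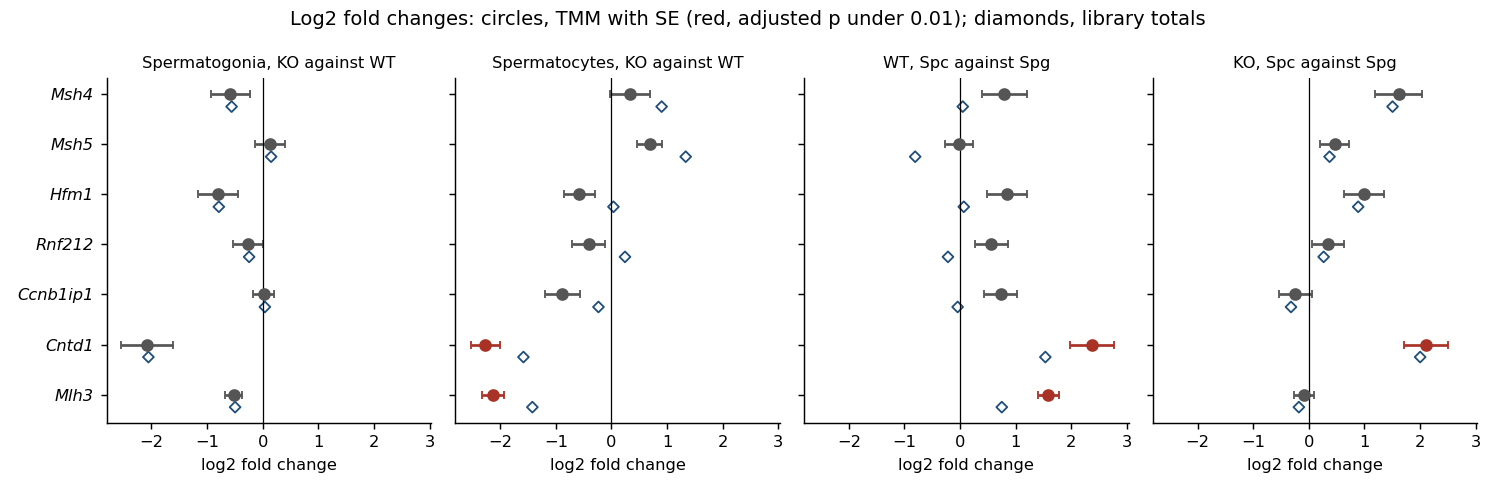
Log2 fold changes of the 7 genes in 4 comparisons. Circles with SE bars are the TMM-scaled edgeR fits, red where the adjusted p was under 0.01, and open diamonds are the same fits scaled by library totals. In spermatocytes Cntd1 (-2.26) and Mlh3 (-2.13) were lower in KO under both scalings, whereas Hfm1 and Rnf212 changed sign.

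In spermatocytes, the comparison of KO with WT asked how the members stood in cells that arrest in pachytene. Mlh3 and Cntd1 were lower in KO, 4.38-fold and 4.80-fold, and no member was called higher. Mlh3 had 33.5, 26.9, 36.6 and 37.3 CPM in KO (replicates 1 to 4) and 143, 164, 115 and 165 CPM in WT. The highest KO library was far below the lowest WT library, and the log2 fold change was -2.13 (SE 0.20, adjusted p 1.96e-05). Cntd1 had 74.1, 37.97, 80.4 and 88.3 CPM in KO and 355, 327, 311 and 357 CPM in WT (log2 -2.26, SE 0.26, adjusted p 6.53e-05). KO replicate 2 was the lowest KO library in Cntd1, Mlh3, Msh4, Msh5 and Hfm1, but not in Rnf212 or Ccnb1ip1. It also had the least of the pachytene list (172 CPM against 312 to 413) and of the early meiotic list (1360 CPM against 2230 to 2573). Its sums of spermatogonial (966 CPM), peritubular (137 CPM) and macrophage markers (89.1 CPM) were the highest of the KO spermatocyte libraries. Both calls held under all 17 alternatives, where Mlh3 ranged from -2.22 to -1.42 and Cntd1 from -2.39 to -1.58.

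These 2 of 7 members called compare with 58.8% of 21919 genes called in spermatocytes, with 30.7% of all genes tested called lower, and 4 of 7 without overlap compare with 68.4% of all genes, so neither count sets the members apart. The other 2 without overlap were Msh5 and Ccnb1ip1. Msh5 had 51.2, 40.5, 44.7 and 48.7 CPM in KO and 24.6, 34.9, 33.2 and 22.1 CPM in WT, so all KO libraries were higher (log2 0.69, SE 0.22, adjusted p 0.0184). Scaled by library totals, the median gene went from 0.11 to 0.79, and Msh5 was called at 1.34, as were 59.1% of all genes (adjusted p 0.00264, with 0.00264 to 0.133 over all alternatives). Ccnb1ip1 had 11.1, 13.7, 16.4 and 12.01 CPM in KO and 17.1, 35.7, 28.7 and 16.7 CPM in WT, so all KO libraries were lower, by a narrow gap (log2 -0.88, SE 0.32, adjusted p 0.0289). Under library totals its groups overlapped and the log2 fold change was -0.23 (adjusted p 0.609). DESeq2's Wald test, which called 68.4% of all genes, called both (adjusted p 0.00337 and 0.00464, the latter with a range of 0.00464 to 0.609).

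The groups of Msh4, Hfm1 and Rnf212 overlapped. Msh4, the partner of Msh5, had 47.2, 24.8, 45.7 and 59.2 CPM in KO and 23.0, 39.0, 56.2 and 22.6 CPM in WT (log2 0.33, SE 0.36, adjusted p 0.431). Its value depended on the processing, at 0.90 under library totals, 0.07 with replicates 1 and 4 summed, and 0.13 (without WT replicate 4) to 0.65 (without WT replicate 3) when 1 library was left out, and it was called in none of these. Hfm1 had 126, 67.0, 103 and 147 CPM in KO and 117, 192, 216 and 136 CPM in WT (log2 -0.57, SE 0.28, adjusted p 0.0929). Rnf212, the scarcest member by CPM, had 6.90 to 9.12 CPM in KO and 7.61 to 12.8 CPM in WT (log2 -0.41, SE 0.30, adjusted p 0.240). Under library totals Hfm1 and Rnf212 had the opposite sign (0.04 and 0.24), so no direction is given for either. WT replicates 2 and 3 were above WT replicates 1 and 4 in Msh4, Hfm1, Rnf212, Ccnb1ip1 and Msh5, and they also had less of the pachytene list (11587 and 7303 against 14044 and 13587 CPM).

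The effect of the KO was next compared between the stages in a fit over all 14 libraries. Mlh3 was the member called: its fall in spermatocytes exceeded that in spermatogonia by 1.67 on the log2 scale (log2 difference -1.67, SE 0.26, adjusted p 0.000408). Among 24340 genes 25.7% were called in this test. Leaving out any 1 library kept the call, with values from -1.77 to -1.49, and under library totals the value was -0.93 with an adjusted p of 0.0108, the highest of all alternatives. For Cntd1 the difference was -0.26 (SE 0.52, adjusted p 0.708), and it took either sign when single libraries were left out (-0.99 to 0.14). The differences of the remaining members were -0.97 for Ccnb1ip1 (adjusted p 0.0717), 0.82 for Msh4, 0.49 for Msh5, -0.22 for Rnf212 and 0.16 for Hfm1. Under library totals these and Cntd1 lay between -0.28 (Ccnb1ip1) and 1.46 (Msh4), none called.

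The course from spermatogonia to spermatocytes was also followed within the KO. Cntd1 rose 4.31-fold (log2 2.11, SE 0.39, adjusted p 0.00471), from 4.07, 4.65 and 3.82 CPM per kilobase in KO spermatogonia to 19.3, 9.84, 20.6 and 22.4 in KO spermatocytes, without overlap (26.4% of all genes). Of the 7 members it alone was called, in a comparison where 3.05% of 24340 genes were. The call depended on single libraries: it was lost without KO spermatocyte replicate 1, 3 or 4 and without any of the KO spermatogonia replicates, with values of 1.93 to 2.13 and adjusted p-values up to 0.0518. It was also lost with replicates 1 and 4 summed (2.04, adjusted p 0.0210) and with the replicate block (2.09, adjusted p 0.0198). These 2 fits called 1.46% and 1.54% of all genes, in place of 3.05%. Mlh3 stayed at 4.08 to 5.55 CPM per kilobase in KO spermatocytes and 5.07 to 5.61 in KO spermatogonia (log2 -0.08, SE 0.18, adjusted p 0.809). Msh4 was the second largest at 1.61 (SE 0.42, adjusted p 0.0291), from 1.86 to 2.84 up to 4.12 to 9.64 CPM per kilobase without overlap, and it was called by DESeq2's Wald test, as were 9.60% of all genes (adjusted p 0.00129, with 0.00129 to 0.168 over all alternatives). Hfm1 (1.00), Msh5 (0.47), Rnf212 (0.35) and Ccnb1ip1 (-0.24) were not called. This course shares its libraries with the comparisons above.

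Ratios of counts within a library do not depend on the scaling. They were chosen after the values were seen and are given as a description. The ratio of Mlh3 to Msh5 counts was 5.80, 4.71, 3.48 and 7.48 in WT spermatocytes and 0.655, 0.665, 0.820 and 0.766 in KO spermatocytes. In spermatogonia it was 1.36, 1.62 and 2.26 in WT and 0.972, 0.906 and 1.45 in KO. Counts are not divided by exon length here, so a ratio above or below 1 gives no order of the levels. Every WT spermatocyte library had a higher ratio than every other library. The ratio of Cntd1 to Msh5 was 9.36 to 16.1 in WT and 0.938 to 1.81 in KO spermatocytes, and 1.23 to 3.49 in WT and 0.439 to 0.601 in KO spermatogonia. The ratio of Msh4 to Msh5, whose products form 1 complex, was 0.934 to 1.69 in WT and 0.612 to 1.21 in KO spermatocytes, with overlapping groups, and 0.542 to 0.904 in WT and 0.361 to 0.496 in KO spermatogonia, without overlap.

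**Figure D3:**
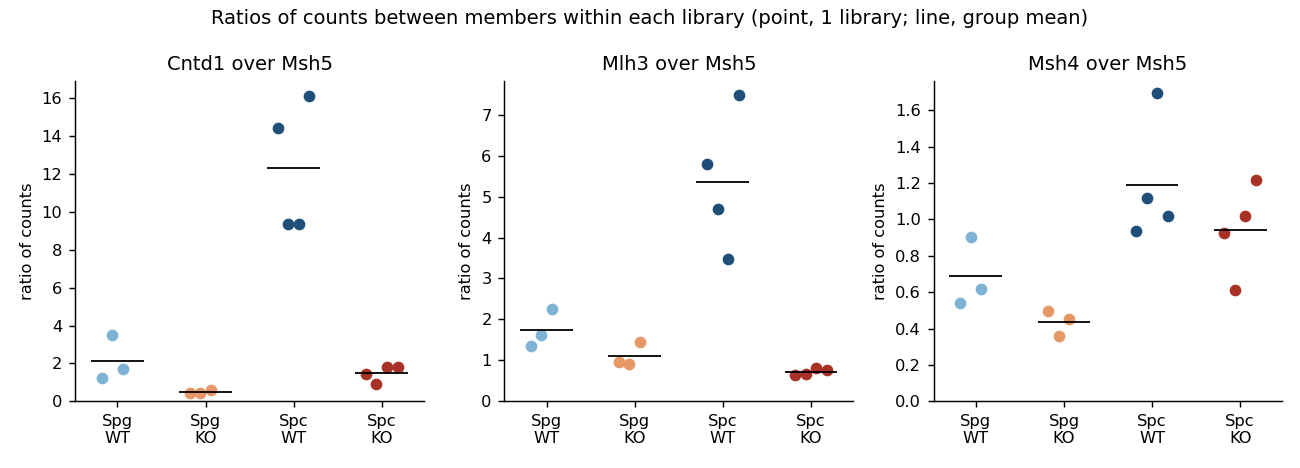
Ratios of the counts of Cntd1, Mlh3 and Msh4 to those of Msh5 in each library. Points are libraries, lines are group means. The Cntd1 and Mlh3 ratios of WT spermatocytes (9.36 to 16.1 and 3.48 to 7.48) lie above all KO libraries (at most 1.81 and 1.45), and the Msh4 ratios of KO and WT spermatocytes overlap.

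Each member was also set against 8 genes of early meiosis (Sycp1, Sycp2, Sycp3, Dmc1, Spo11, Meiob, Prdm9 and Hormad1), as its log2 CPM minus their mean log2 CPM. On this scale Mlh3 was at -0.51 to 1.19 in WT and -2.45 to -2.13 in KO spermatocytes, and Cntd1 at 0.92 to 2.30 and -1.64 to -1.21. Hfm1 (0.39 to 1.05 against -0.88 to -0.48), Ccnb1ip1 (-2.49 to -1.36 against -4.05 to -3.08) and Cntd1 and Mlh3 did not overlap between WT and KO spermatocytes. The share of all genes without overlap was not computed on this scale. In CPM it was 68.4% in spermatocytes and 12.1% in spermatogonia. Msh4 (-1.80 to -1.24 against -2.25 to -1.79) and Msh5 (-2.29 to -1.39 against -2.08 to -1.55) did overlap. Rnf212 overlapped narrowly. In spermatogonia Cntd1 was separated, at -1.40 to 0.12 in WT and -2.59 to -1.98 in KO, and so was Msh5 in the other direction, at -1.89 to -1.67 and -1.48 to -1.06, while Mlh3 overlapped (-1.25 to -0.73 and -1.52 to -0.73). Of the 8 early meiotic genes 3 were called higher and 2 lower in KO spermatocytes, so the reference itself was not level.

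**Figure D4:**
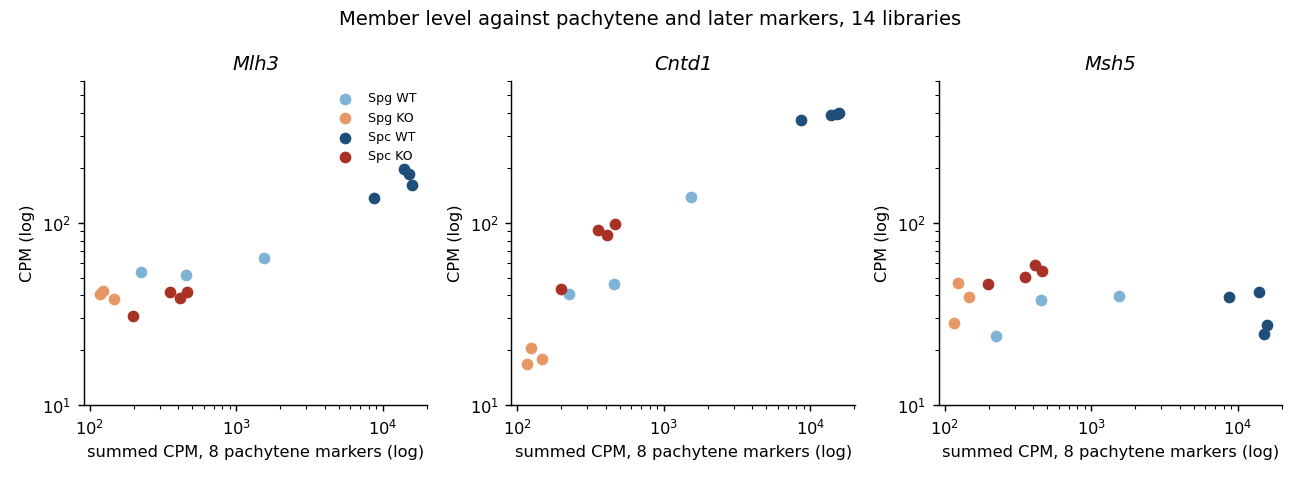
CPM of Mlh3, Cntd1 and Msh5 against the summed CPM of 8 markers of pachytene and later spermatocytes, both on log axes and scaled over all 14 libraries. Points are libraries coloured by group. Among the WT spermatogonia, replicate 2 has the most marker RNA and the most Cntd1, while the Msh5 levels of WT spermatocytes, which have the highest marker sums, lie within the range of the other libraries.

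Across the 14 libraries the highest marker sums went with the highest Mlh3 and Cntd1 levels, as the plot against the pachytene markers shows. KO spermatocytes had marker sums of 198 to 464 CPM on the scale of all libraries and Mlh3 at 30.8 to 41.9 CPM, whereas WT spermatogonia replicates 1 and 3 had sums of 456 and 225 CPM and Mlh3 at 51.4 and 54.0 CPM. Cntd1 at the same libraries was 43.5 to 99.2 CPM and 46.4 and 40.6 CPM. The part of the later stages in the differences of Mlh3 and Cntd1 was not tested.

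Other genes of crossover formation and of its alternatives were looked up in a list of 18, of which 17 were matched in the tables (Redic1 was not). In spermatocytes 11 of the 17 were called, 3 higher and 8 lower in KO, against 58.8% of all genes, and with replicates 1 and 4 summed 5 were (1 higher, 4 lower), against 39.3% of all genes. Under library totals the split was 5 higher and 3 lower, where 36.8% of all genes were called higher and 22.3% lower (28.04% and 30.7% under TMM). The 4 with the smallest p all fell. Slx4, a scaffold for nucleases, had 55.8 to 64.1 CPM in KO and 232 to 573 in WT (log2 -2.81, SE 0.29, adjusted p 3.44e-05). Fignl1, which limits strand exchange, changed by -1.38 (SE 0.18, adjusted p 0.000129). Prr19, the partner of CNTD1 in crossover maturation, had 11.7, 22.7, 20.9 and 12.6 CPM in KO and 164, 96.8, 61.5 and 155 CPM in WT (log2 -2.81, SE 0.37, adjusted p 0.000132). Mus81, a nuclease of a minor crossover pathway, changed by -1.98 (SE 0.32, adjusted p 0.000418). Under library totals Slx4 (-2.04), Prr19 (-2.01) and Mus81 (-1.20) were still called and Fignl1 was not (-0.68, adjusted p 0.0111).

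None of the 17 was called in spermatogonia by edgeR or DESeq2, against 0.0436% and 2.49% of all genes. In edgeR 0 had an unadjusted p under 0.05, against 7.30% of all genes, so these counts do not set the list apart. Fignl1 (-0.23), Blm (-0.26), Rmi1 (-0.24) and 1700028K03Rik, which encodes SPO16 (-0.53), had the smallest p (adjusted p 0.880 to 1). Prr19 had 29.4 to 39.3 CPM in KO and 30.9 to 42.9 CPM in WT spermatogonia, overlapping where Cntd1 did not.

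**Figure D5:**
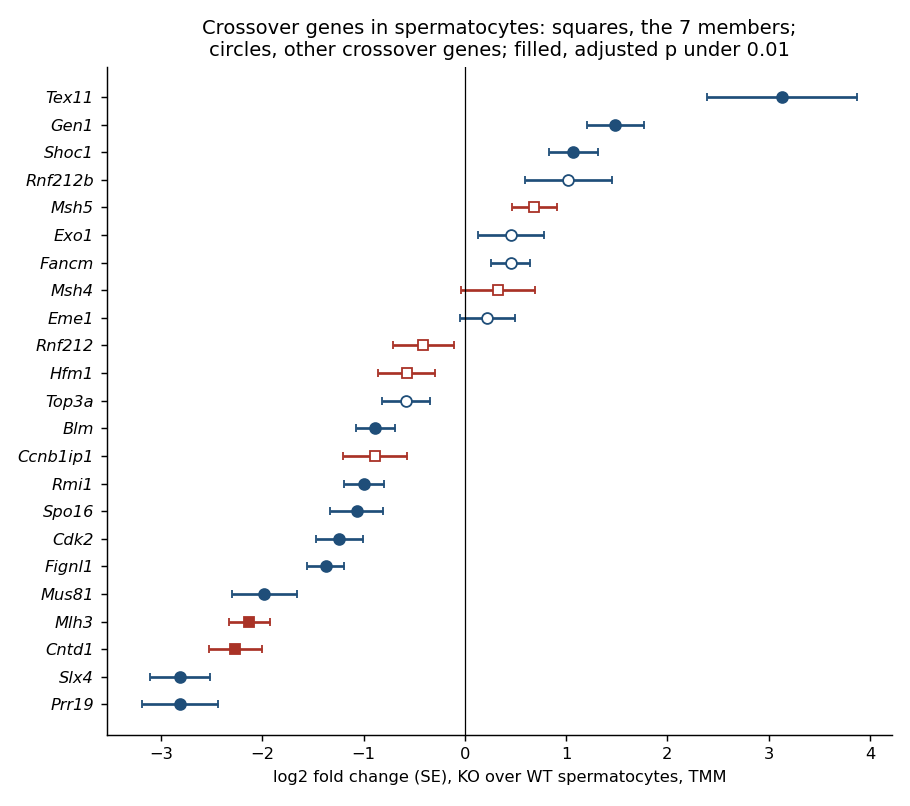
Log2 fold changes with SE of KO against WT spermatocytes for the 7 members (squares) and other genes of the pathway list (circles), TMM-scaled and sorted. Filled symbols have an adjusted p under 0.01. Mlh3 and Cntd1 lie among the 4 lowest of the genes shown, beside Slx4 and Prr19, and Tex11 (3.13) is the highest.

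The difference of the KO effect between stages was called for 6 of the 17, 1 higher and 5 lower, against 25.7% of all genes. It was called for 4 under library totals (2 higher, 2 lower, 24.6% of all genes) and for 3 with replicates 1 and 4 summed (all lower, 14.8% of all genes). Slx4 (-2.58, adjusted p 0.000283), Prr19 (-2.75, 0.000636), Fignl1 (-1.20, 0.00143) and Cdk2, the kinase that marks late crossover sites (-1.29, 0.00268), had the smallest p, all in the direction of Mlh3. Under library totals Slx4 (-1.79) and Prr19 (-1.93) were still called, and Fignl1 (-0.47) and Cdk2 (-0.51) were not. From WT spermatogonia to WT spermatocytes 11 were called, 7 higher and 4 lower, against 52.5% of all genes (29.2% higher, 23.3% lower). Under library totals 9 were called, 2 higher and 7 lower, against 54.5% of all genes (18.7% higher, 35.8% lower). Slx4 (2.64, adjusted p 9.66e-06), Fignl1 (1.30), Prr19 (2.21) and Rmi1, of the complex that dissolves joint molecules (1.16), rose with Cntd1 and Mlh3. Under library totals Slx4 (1.76) and Prr19 (1.33) were still called higher, and Fignl1 (0.48) and Rmi1 (0.33) were not called. In the KO none of the 17 was called between stages by edgeR, against 3.05% of all genes, and 1 was called by DESeq2, against 9.60%. An unadjusted p under 0.05 was found for 4 of the 17 and 24.5% of all genes, the smallest p being those of Spo16 (1.18, adjusted p 0.0349), Exo1 (-1.01), Blm (-0.44) and Top3a (-0.50).

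The genes whose pattern over the 14 libraries was most like that of each member were found by the root mean square difference of centred log2 CPM among 19215 genes. They were Ufl1 (0.127) and Atp11a (0.128) for Mlh3, Cep83os (0.261) and Brd8dc (0.294) for Cntd1, Tcp11l2 (0.162) and Gm15529 (0.223) for Msh4, and Zcwpw2 (0.176) and 2810039B14Rik (0.183) for Msh5. For Rnf212 they were Mir6958 (0.165) and Apbb3 (0.169), for Ccnb1ip1 Pcgf5 (0.127) and Rad1 (0.168), and for Hfm1 Gm26782 (0.274) and Gm48632 (0.282). Among members the closest pair was Ccnb1ip1 and Rnf212 (0.306), followed by Hfm1 and Msh4 (0.472). Mlh3 and Cntd1 were 0.957 apart, and the widest gap was between Cntd1 and Msh5 (1.71).

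Since DNMT3C acts on retrotransposons, TE copies inside the spans of the 7 genes were examined in the deposited TPM values, which are shares of TE copies alone. Of 486 copies, 260 were listed above 0 in at least 1 library. Only 12 belonged to young L1 or ERVK subfamilies (L1Md_F, L1Md_F2, L1Md_F3, L1Md_T and RLTR10C), and 7 of these were listed above 0, at most at 6.39 TPM, against 93.8 TPM for the highest copy of any kind, a B3A element in Cntd1. Rnf212 held both L1Md_T copies, on its own strand. The first lay at 6.22, 4.63, 6.39 and 5.25 TPM in KO and 0, 0.850, 1.68 and 0.368 TPM in WT spermatocytes, but at 2.31 to 3.40 TPM in KO and 4.15 to 5.02 TPM in WT spermatogonia. The second stayed between 0 and 2.90 TPM. Mlh3 held 1 young copy, L1Md_F3, at 0.984 to 1.65 TPM in KO and 1.87 to 5.99 TPM in WT spermatocytes, and Cntd1, Msh5 and Ccnb1ip1 held none. The summed TPM of all copies within Mlh3 reached 67.8 to 99.1 in WT spermatocytes and overlapped 26.5 to 68.2 in KO, whereas for Hfm1 it was 12.9 to 99.0 in WT and 168 to 222 in KO, and for Msh5 it was 19.0 to 73.7 in WT and 132 to 163 in KO. The groups overlapped for the other 4 genes. A copy inside a gene can draw reads from that gene's own transcript, and depth behind these TPM values is unknown.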

How the data were processed

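Sorted spermatogonia (3 KO, 3 WT) and spermatocytes (4 KO, 4 WT) were profiled by stranded, paired-end sequencing of polyadenylated RNA. The authors trimmed reads with cutadapt 4.0, aligned them to GRCm38 with STAR 2.7.3a and GENCODE M25, kept up to 100 alignments per read and deposited raw counts per gene and TE subfamily from TEtranscripts. The deposited TPM values of single TE copies came from the authors' TElocal run and cover TE copies alone. The log2 fold changes and p-values that the authors deposited in the count tables, from DESeq2 1.44.0, were not used. The authors excluded 1 spermatogonia replicate per genotype for low RNA quality, which was not analysed here. Total counts per library were 40.6 to 53.3 in units of 1000000, and counting error is small beside the spread between libraries.

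The members and gene lists were chosen with earlier results of these data known. Counts were tested with edgeR 4.0.16 (filterByExpr, TMM factors, quasi-likelihood test, two-sided) in R 4.3.3, per stage and, for comparisons across stages, over all 14 libraries in 4 groups. The Benjamini-Hochberg adjustment covered every tested gene and TE subfamily, and calls were made at an adjusted p under 0.01. Alternatives used DESeq2 1.42.0, other scalings, filters and a threshold of 0.05, a replicate block, spermatocyte replicates 1 and 4 summed, and each library left out. Log2 CPM used a pseudocount of 0.5. The text names all 7 members, in each comparison the 4 genes of the pathway list with the smallest p, and the 2 genes nearest to each member. A gene of that list is not reported here. Prr19 and Tex11 are also named outside that rule, chosen after their values were seen. Exon lengths came from GENCODE M21 (GRCm38), which holds all 7 gene identifiers, and promoters from RefSeq (GRCm38.p6). The edgeR steps were tested on simulated data, where many of the changes put in were missed, so a gene that was not called is not shown to be unchanged. Replicate numbers come from the sample titles. The labels speak of littermates and do not say that replicates came from separate animals, so p-values measure the spread between these libraries. Deviations of same-numbered KO and WT spermatogonia libraries correlated at 0.68, 0.18 and 0.25. KO replicate 2 with WT replicate 3 reached 0.32, above the 0.18 and 0.25, and the other unlike-numbered pairs were negative (-0.57 to -0.05). The numbers were taken to pair these samples, which is clear for replicate 1 alone. In spermatocytes the correlations were 0.06, 0.19, -0.03 and 0.11, and the numbers do not pair them. Other steps used Python 3.11.15, NumPy 2.4.6, pandas 2.3.3 and matplotlib 3.10.9.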

Additional observations from a re-analysis of the deposited data

Results flagged for a closer look

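The effect of the KO on Mlh3 differed between the stages, by -1.67 on the log2 scale (SE 0.26, edgeR interaction test, adjusted p 0.000408). It was -2.13 in spermatocytes, where all 4 KO libraries lay below all 4 WT libraries, and -0.52 in spermatogonia, where all 3 KO libraries lay below the WT libraries. The difference was called in 22 of 23 alternatives. Of 14 groups of 4 libraries checked (7 members, KO and WT spermatocytes), none held a library that passed Dixon's test for an outlying value, KO replicate 2 in Cntd1 included. With 4 values this test finds only extreme values, so it does not show that no library stood apart. The spermatogonia groups, WT replicate 2 in Cntd1 included, were not checked.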

How the results depend on the processing

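The 35 log2 fold changes of the members were recomputed under 14 to 23 alternatives each, 700 values in all, of which 661 kept their sign and their side of the threshold, 9 lost the call, 9 gained it and 21 changed sign. The number of members called moved by over 1.5 times under these alternatives. DESeq2's Wald test called 1 in spermatogonia (Cntd1), 4 in spermatocytes (Msh5, Mlh3, Ccnb1ip1 and Cntd1) and 2 between the KO stages (Msh4 and Cntd1). A threshold of 0.05 gave 4 and 2 in the latter comparisons, with 72.6% and 8.39% of all genes called. Smaller moves were to 3 from 2 in spermatocytes under library totals and between the WT stages at a threshold of 0.05. Library totals left 0 for the difference between stages, and the replicate block and the sum of replicates 1 and 4 left 0 between the KO stages. The block and the sum called 1.54% and 1.46% of all genes between the KO stages, in place of 3.05%. Leaving out 1 library gave 0 to 1 between the KO stages, 0 in spermatogonia, 2 in spermatocytes, 2 between the WT stages and 1 for the difference. Shares over all genes are not given for these fits. With replicates 1 and 4 summed, chosen for the pathway list after seeing the data, 5 other crossover genes were called in spermatocytes in place of 11, where the share of all genes called went from 58.8% to 39.3%, and 3 in place of 6 for the difference between stages. Library totals, the replicate block and DESeq2 gave 8, 10 and 12, with 59.1%, 52.2% and 68.4% of all genes called. The cause was not tested.

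Signs changed under library totals for Rnf212 in spermatocytes (0.24), between the WT stages (-0.22) and in the difference between stages (0.48), for Hfm1 in spermatocytes (0.036), for Cntd1 in the difference (0.47) and for Ccnb1ip1 between the WT stages (-0.044). They changed for Hfm1 in the difference with replicates 1 and 4 summed (-0.11), and for Msh5 between the WT stages under the replicate block (0.054) and with replicates 1 and 4 summed (0.13). Leaving out 1 library changed the sign of values near 0: in spermatogonia Msh5 ran from -0.081 to 0.32 and Ccnb1ip1 from -0.063 to 0.14, in the difference Hfm1 ran from -0.00015 to 0.52 and Cntd1 from -0.99 to 0.14, and between the WT stages Msh5 ran from -0.37 to 0.12. The block changed no other call of a member than that of Cntd1 between the KO stages.

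Under library totals, levels per kilobase moved by more than 1 SD for Msh5 (4.22 in WT and 10.6 in KO spermatocytes), Mlh3 (9.03 and 6.40 in WT and KO spermatogonia, 15.2 in WT spermatocytes), Rnf212 (5.06 in KO spermatogonia, 5.14 in WT spermatocytes), Ccnb1ip1 (11.1 and 11.4 in WT and KO spermatogonia) and Cntd1 (4.99 in KO spermatogonia, 59.9 in WT spermatocytes). The order of the members was kept, except that 5 of 7 kept their place in WT spermatocytes, where Msh4 and Msh5 changed places. A pseudocount of 1 CPM moved no level relative to the early meiotic genes by more than 1 SD. Depth limits Rnf212 most, at 244 to 611 counts per library.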
